A study of Mus musculus with 2 samples.

Results

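The melanosome and pigment synthesis genes examined here are *Dct*, *Tyr*, *Tyrp1*, *Pmel*, *Mlana*, *Slc45a2*, *Slc24a5*, *Oca2*, *Gpr143* and *Mcoln3*. They were grouped for their known part in pigment formation, and all 10 symbols were found among the 28000 genes of the deposited counts. Melanin is made in melanosomes, lysosome-related organelles of the melanocyte lineage, whose embryonic precursors, the melanoblasts, arise from the neural crest and colonise the skin. Fibrils of PMEL form the scaffold on which melanin is laid down, tyrosinase starts melanin synthesis from tyrosine, and DCT and TYRP1 act on later intermediates of the dark pigment eumelanin. Channels, transporters and a receptor of the melanosome membrane adjust the pH, ions and size of the organelle.

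The data are single-cell RNA sequencing counts (scRNAseq, 10x Genomics Chromium 3′ chemistry) of live tdTomato+ cells sorted from trunk skin of mouse embryos at E15.5, with 1 library per genotype. HIRA WT is *TyrCre::Hira* wt/wt with *LSL-tdTomato*, and HIRA KO is *TyrCre::Hira* fl/fl with *LSL-tdTomato*, both on a mixed background close to C57BL/6J. HIRA is a chaperone that places histone H3.3 into chromatin independently of replication. In both groups Cre, from the autosomal *TyrCreB* allele used for embryos, is driven by a *Tyr* promoter that is also active in some non-melanocytic cells, so the sort holds other cell types too. The comparison asks how the pigment genes are expressed in melanoblasts with and without HIRA.

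The WT library held 7073939 unique molecular identifiers (UMIs) in 1546 barcodes and the KO library 5049514 in 846, and the libraries shared 0 barcodes. After filtering, 1540 WT cells with a median of 3967.5 UMIs and 828 KO cells with a median of 5204.5 remained. The cells were clustered jointly without the 10 genes, and the 20 clusters were named from marker genes that hold none of the 10, as melanoblast-like, glial-like and so on. Doublets were kept, and of the 9 WT and 6 KO doublet calls by Scrublet, 0 WT and 1 KO fell on melanoblast-like cells. The melanoblast-like class held 537 WT cells (median 4343 UMIs) and 144 KO cells (median 5638), in 3 clusters. A level is the number of UMIs of a gene in a class, scaled to the total UMIs of that class and library and given in CPM. Because the chemistry tags 1 end of each transcript, it counts molecules and is not scaled by gene length. With 1 library per genotype there is no replicate and no test, and all intervals are exact 95% intervals that cover counting error only.

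*Hira* (ENSMUSG00000022702) was read first as a check of the labels. Melanoblast-like cells held 35 WT UMIs of it (13.8 CPM, 9.59 to 19.1) and 4 KO UMIs (4.58 CPM, 1.25 to 11.7). *Hira* was thus lower in KO melanoblast-like cells, as the labels say, with a log2 ratio of -1.59 (-3.54 to -0.10), when all UMIs were used. Cells thinned to 2000 UMIs kept 9 WT and 3 KO UMIs, in 1.71% of 526 WT and 2.08% of 144 KO cells. These are too few to tell whether *Hira* was lower at equal depth. No difference was detectable in glial-like cells, at -0.55 (-1.88 to 0.68), mesenchymal-like cells, at 0.33 (-0.93 to 1.69), or macrophage-like cells, at 0.64 (-1.99 to 2.86). The check rests on few UMIs, and 3′ tags that lie outside the deleted exons do not check the deletion. *Gm28539* overlaps *Hira* on the same strand over 79211 bases. The class held 3 WT and 2 KO UMIs of *Cre* and 25 WT and 10 KO UMIs of *tdTomato*. It held 6142 WT and 2 KO UMIs of *Xist*, so the WT embryo was female and the KO embryo male, and an effect of genotype cannot be told apart from one of sex or of the individual embryo.

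In melanoblast-like cells the 10 genes together made up 6227 CPM (6131 to 6325) of the WT and 5712 CPM (5555 to 5873) of the KO library. *Dct* (ENSMUSG00000022129, chromosome 14), the gene of dopachrome tautomerase, stood first in both, with 48.8% of the WT and 49.4% of the KO UMIs of the group. It had a WT level of 3039 CPM (2972 to 3108) and a KO level of 2825 CPM (2714 to 2938), which ranked it 74 of 13401 detected genes in WT and 77 of 12500 in KO. *Dct* and the fibril gene *Pmel* were thus among the more abundant transcripts of these cells. *Pmel* (ENSMUSG00000025359, chromosome 10) had a WT level of 1429 CPM (1383 to 1477) and a KO level of 1348 CPM (1272 to 1427). *Mlana* (ENSMUSG00000024806, chromosome 19), whose product binds PMEL and GPR143 in the early melanosome, had a WT level of 630.4 CPM (599.9 to 662) and a KO level of 565 CPM (516 to 617).

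The enzyme *Tyr* (ENSMUSG00000004651, chromosome 7), which carries out the rate-limiting step of melanin synthesis, was far below *Dct*, with a WT level of 250.1 CPM (231 to 270.3) and a KO level of 253 CPM (221 to 288). *Tyrp1* (ENSMUSG00000005994, chromosome 4), its relative, was at 23.6 CPM (18.0 to 30.4) in WT on 60 UMIs. In KO it had 0 UMIs, which allows up to 3.43 CPM. Of the 3 enzymes of the tyrosinase family, *Dct* therefore led in both libraries and *Tyrp1* was last.

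Among the membrane proteins, the potassium-dependent sodium-calcium exchanger *Slc24a5* (ENSMUSG00000035183, chromosome 2) was highest, with a WT level of 437 CPM (412 to 464) and a KO level of 358 CPM (319.5 to 400.0). *Mcoln3* (ENSMUSG00000036853, chromosome 3), a cation channel of endolysosomes known from the pigment and hearing defects of varitint-waddler mice, had a WT level of 246 CPM (227 to 266) and a KO level of 238 CPM (207 to 273). *Slc45a2* (ENSMUSG00000022243, chromosome 15), a proton-coupled sugar transporter that raises melanosomal pH, had a WT level of 146 CPM (131 to 161) and a KO level of 93.8 CPM (74.6 to 116). In this order, the 3 genes ranked 313, 515 and 881 among the detected genes in WT and 359, 511 and 1275 in KO.

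The remaining pair of membrane proteins was lower. *Gpr143* (ENSMUSG00000025333, chromosome X), the ocular albinism receptor that controls melanosome size, had a WT level of 24.8 CPM (19.0 to 31.7) and a KO level of 32.0 CPM (21.3 to 46.3). *Oca2* (ENSMUSG00000030450, chromosome 7), a chloride channel that raises melanosomal pH, had 2 UMIs in WT and 0 in KO. It lies on the same chromosome as *Tyr*, and no ratio was computed for it. In the order of levels, *Dct*, *Pmel*, *Mlana*, *Slc24a5*, *Tyr*, *Mcoln3*, *Slc45a2* and *Gpr143* kept the same places in both libraries. The neighbours *Tyr* and *Mcoln3* had overlapping intervals in both libraries, as did *Gpr143* and *Tyrp1* in WT, and *Tyrp1* and *Oca2* were both at 0 UMIs in KO.

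**Figure D1:**
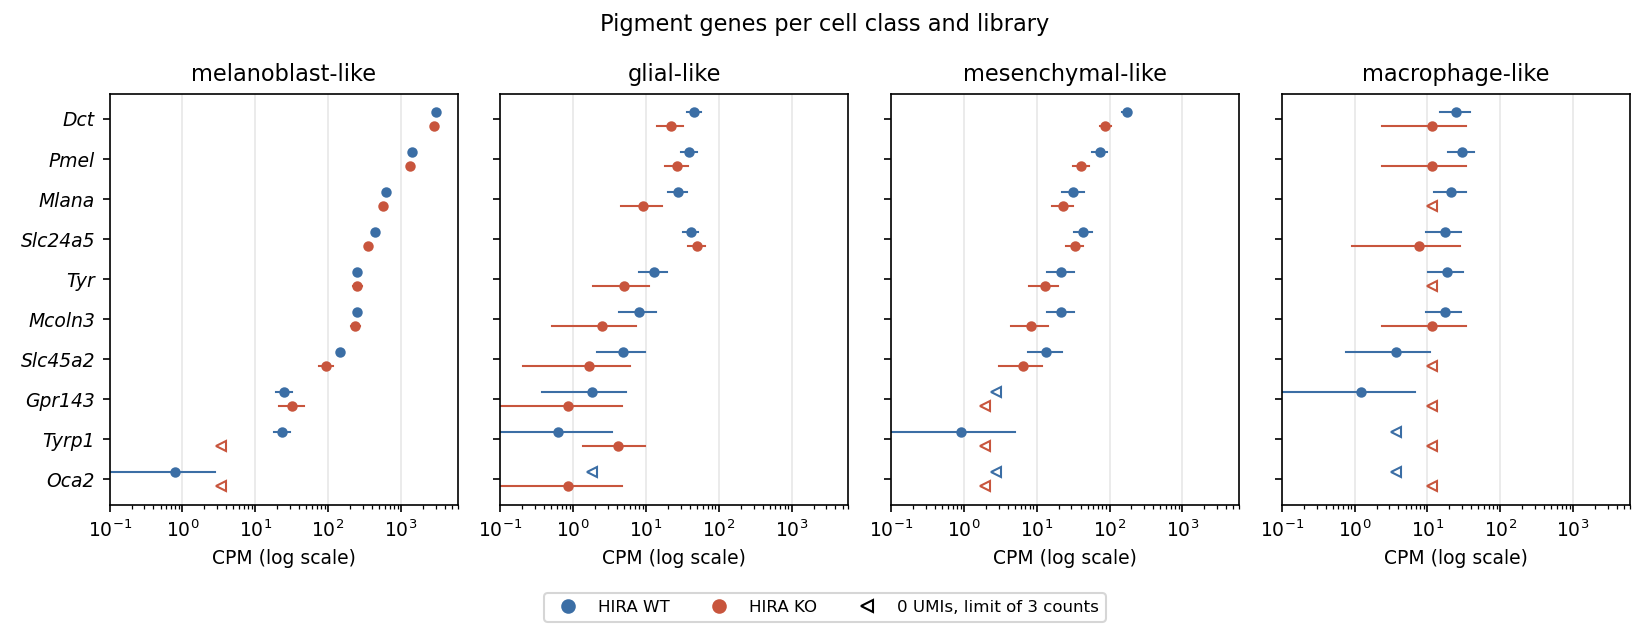
Level of each of the 10 genes (CPM, log scale) in melanoblast-like, glial-like, mesenchymal-like and macrophage-like cells of the HIRA WT (blue) and HIRA KO (red) library. Points are levels of summed UMIs, bars exact Poisson 95% intervals of the counting error, some reaching past the left edge, and open triangles the limit of 3 counts for a gene with 0 UMIs. *Dct* goes from 3039 CPM in WT melanoblast-like cells to 24.6 CPM in WT macrophage-like cells, and from 2825 to 11.5 CPM in KO.

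Most cells of the melanoblast-like class held these transcripts. At least 1 UMI of the 10 genes was found in 533 of 537 WT cells (99.3%) and 141 of 144 KO cells (97.9%), against 29.9% of the 144 WT macrophage-like cells (median 4937 UMIs) and 26.5% of the 34 KO macrophage-like cells (median 6796.5), which should lack them. With cells thinned to 2000 UMIs, and the 11 WT and 0 KO melanoblast-like cells below that depth left out, the shares were 98.3% and 95.1%, and 8.89% and 5.88% in macrophage-like cells. The melanoblast-like cells thus stood far above macrophage-like cells. The macrophage-like class includes cluster 8, of 48 WT and 15 KO cells, which had 1 macrophage marker among its 10 leading genes. The origin of the UMIs in macrophage-like cells was not tested, and 2 of the 144 WT cells held 41 of their 108 UMIs.

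The share of cells with a UMI was also read for single genes. *Dct* was seen in 96.3% of the WT and 95.1% of the KO melanoblast-like cells, and in 90.5% and 91.0% after thinning, against 9.03% of WT macrophage-like cells (3.70% thinned). *Pmel* was detected in 82.1% and 89.6% of melanoblast-like cells, and in 69.8% and 75.7% after thinning, against 9.72% of WT macrophage-like cells (1.48% thinned). *Mcoln3*, with a level close to that of *Tyr*, was detected in 64.2% of WT and 71.5% of KO cells, and in 41.3% and 42.4% after thinning, against 5.56% in WT macrophage-like cells (0.741% thinned). After thinning, the KO share of *Mcoln3* was close to the WT share, and that of *Pmel* was somewhat higher, on 109 of 144 KO and 367 of 526 WT cells. These thinned shares are given without intervals, and the summed level of neither gene was higher in KO. Shares did not simply follow levels, as *Slc24a5*, with a higher level than *Mcoln3*, was found in 64.2% of WT and 67.4% of KO cells, and in 44.7% and 44.4% after thinning, against 6.25% of WT macrophage-like cells (2.96% thinned). *Tyrp1* had UMIs in only 14 of 537 WT cells (2.61%) at a level close to that of *Gpr143*, which was found in 54 WT cells (10.1%).

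The transcripts were concentrated in the melanoblast-like class. It held 93.7% of all UMIs of the 10 genes in the WT library, with 36.0% of all UMIs, and 88.0% in the KO library, with 17.5% of all UMIs. *Dct* had 95.4% of its WT and 90.7% of its KO UMIs there. *Slc24a5* had the lowest share among the 8 genes detected in both libraries' melanoblast-like cells, 86.9% in WT and 69.2% in KO.

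Outside the melanoblast-like class a few cells carried many of the UMIs. In WT mesenchymal-like cells, which had 379 CPM (344 to 417) of the 10 genes, 11 of 228 cells with at least 10 such UMIs held 323 of 419. In KO mesenchymal-like cells, at 213 CPM (190 to 237), 5 of 269 cells held 228 of 332. In WT glial-like cells, at 181 CPM (161 to 203), 4 of 447 cells held 152 of 297. In WT keratinocyte-like cells, which had the highest level outside the melanoblast-like class, 1422 CPM (1177 to 1703), 3 of 12 cells held 114 of 118. KO glial-like cells differed in having 1 such cell, with 22 of 146 UMIs, at 122 CPM (103 to 144). Of all such cells outside the melanoblast-like class, 5 WT and 2 KO cells were doublet calls of Scrublet, and their origin was not tested. Without the cells called as doublets, the levels of WT glial-like and of WT and KO mesenchymal-like cells were lower, as given below under processing. With cells thinned to 2000 UMIs, the levels were 227 CPM in WT and 129 CPM in KO mesenchymal-like cells. They were 117 and 91.5 CPM in glial-like cells and, in WT macrophage-like cells, 70.4 CPM instead of 133 CPM. Thinning also leaves out cells below 2000 UMIs and gives every cell the same total, and the part of each was not tested.

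With those cells set aside, the 10 genes were at 91.0 CPM in glial-like cells of the WT library and at 105 CPM in those of the KO library. They were at 98.6 and 69.5 CPM in mesenchymal-like cells and at 85.4 and 42.0 CPM in macrophage-like cells. The remaining glial-like and mesenchymal-like cells were close to macrophage-like cells in WT, as were WT mast cell-like cells, at 83.1 CPM. WT keratinocyte-like, endothelial-like and adipocyte-like cells were at 74.2, 56.0 and 43.4 CPM, on 4, 4 and 19 UMIs. Because the cut counts UMIs of the same 10 genes, it limits how high any class can read, and the likeness is partly set by it. In KO the macrophage-like value rests on 11 UMIs, with an interval of 21.0 to 75.1 CPM. The KO glial-like value lay above that interval and the KO mesenchymal-like value within it.

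*Slc24a5* was read further in glial-like cells, where it made up 22.6% (17.9% to 27.7%) of the group's UMIs in WT and 40.4% (32.4% to 48.8%) in KO glial-like cells, against 7.02% and 6.27% in melanoblast-like cells of the same library. Among cells with under 10 UMIs of the group, it made up 34.5% in WT and 47.6% in KO glial-like cells, against 20.5% and 31.1% in all other classes outside the melanoblast-like one. In these cells it was at 31.4 CPM (23.3 to 41.4) in WT glial-like cells, 1.90-fold (1.24 to 2.91) the level in those other classes together. This did not hold in every glial-like cluster, as cluster 3 had 4.39 CPM on 1 UMI in 56 WT cells. In KO glial-like cells it was at 49.8 CPM (37.9 to 64.2), 2.32-fold (1.59 to 3.37) that level. The cut of 10 UMIs counts *Slc24a5* itself, so these ratios hold only below it. Over all cells *Slc24a5* was at 40.9 CPM (31.7 to 52.0) in WT glial-like and 43.4 CPM (32.0 to 57.6) in WT mesenchymal-like cells. In KO these levels were 49.4 (37.6 to 63.7) and 33.3 CPM (24.9 to 43.7). Among cells under the same cut, the other 9 genes had ratios of 0.927 (0.714 to 1.20) in WT and 1.15 (0.845 to 1.56) in KO. Because their UMIs also set the cut, these ratios do not show how the other 9 genes compare over all cells.

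Of these cells, 10.2% (7.51% to 13.4%) of 443 WT glial-like cells had a UMI of *Slc24a5* at a median depth of 3367 UMIs, against 5.63% (2.46% to 10.8%) of 142 macrophage-like cells at 4850.5. In KO the share was 20.2% (15.4% to 25.6%) of 253 glial-like cells at 4205 UMIs and 5.88% (0.720% to 19.7%) of 34 macrophage-like cells. Other classes came closer to the glial-like cells, as 8.76% (5.35% to 13.3%) of 217 WT mesenchymal-like cells had a UMI, at a level of 24.6 CPM (15.8 to 36.7), and 15.2% (8.10% to 25.0%) of 79 KO keratinocyte-like cells did, at a median depth of 9056 UMIs. Over whole classes thinned to 2000 UMIs, it was 6.10% in WT and 8.13% in KO glial-like cells, 4.17% in mesenchymal-like cells of either library, 6.58% in KO keratinocyte-like cells, and 2.96% in WT macrophage-like cells and 0 of 34 in KO, which allows up to 8.82%. The last 4050 bases of *Slc24a5* overlap *Myef2*, a gene of the opposite strand, from 125084628 to 125088677 on chromosome 2. *Myef2* was itself 3.03-fold (2.27 to 4.06) higher in WT and 2.60-fold (1.95 to 3.48) higher in KO glial-like cells than in the other classes. Reads antisense to genes were tallied apart in the authors' Cell Ranger summary, but the deposited counts are not stated to come from that run, and whether any UMIs of *Slc24a5* in glial-like cells come from *Myef2* was not tested.

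*Tyrp1* had its only KO UMIs outside the melanoblast-like class, 5 in 4 glial-like cells, which held at most 2 UMIs of the other genes of the group each. In WT glial-like cells it had 1 UMI.

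The KO and WT libraries were then compared within the melanoblast-like class. Summed over the 10 genes, KO over WT gave a log2 ratio of -0.12 (-0.17 to -0.08). *Dct* had a log2 ratio of -0.11 (-0.17 to -0.04) on 7728 WT and 2469 KO UMIs, and *Pmel* of -0.09 (-0.18 to 0.01) on 3635 and 1178. The difference in the most abundant pigment genes was thus small in this pair of libraries. The summed ratio was not of 1 sign under all settings, since the median over cells of each cell's CPM, an alternative chosen after seeing the data, gave a log2 ratio of 0.27.

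Among the 3476 genes that reached 100 UMIs in this class over both libraries, 4.14% were lower in KO by 1.5-fold or more and 4.40% were higher. Of the 7 pigment genes that reached 100 UMIs, 1 was lower by that size and 0 were higher, which is no more than these shares allow to be read as a change of the group. That gene was *Slc45a2*, on 370 WT and 82 KO UMIs, with a log2 ratio of -0.63 (-0.997 to -0.28). With WT clusters weighted to the makeup of KO, the ratio of *Slc45a2* was -0.44, short of 1.5-fold but within the interval above. Under that weighting 0 genes were lower and 2 were higher, *Mlana* at 0.65 and *Mcoln3* at 0.71. However, 56.0% of the weight lay on 4 WT cells, which held 3 UMIs of *Slc45a2*, 5 of *Mlana* and 2 of *Mcoln3*. Whether the call depends on the makeup of the class cannot be read from so few UMIs. The median log2 ratio of the 7 genes was -0.11, beside -0.03 for all 3476 genes, and 6 of the 7 lay below 0, as did 54.3% of all genes. With fewer UMIs required, at least 30, 9 of the 10 genes were read and 2 were lower, *Slc45a2* and *Tyrp1*, against 9.11% of 6982 genes, while 0 were higher, against 8.97%.

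Between these values lay *Slc24a5*, with a log2 ratio of -0.29 (-0.47 to -0.11) on 1112 and 313 UMIs. *Mlana* had a log2 ratio of -0.16 (-0.31 to -0.01) on 1603 and 494 UMIs. For *Tyr*, at 0.02 (-0.21 to 0.24), and *Mcoln3*, at -0.05 (-0.28 to 0.18), no difference was detectable at this depth. *Gpr143* had a log2 ratio of 0.37 (-0.33 to 1.03) on 63 and 28 UMIs, and because it lies on the X chromosome, the sex difference of the libraries may bear on it, which was not tested. *Tyrp1* was at least 6.88-fold lower in KO, with its 0 KO UMIs taken at the limit of 3 counts and no allowance for the counting error of WT. With that error, the exact interval of the log2 ratio reached up to -2.44, and 3 WT cells held 41 of the 60 WT UMIs.

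The 2 libraries filled the melanoblast-like class with different clusters. Cluster 0, led by *Ptgds*, *Npy* and *Rapgef4*, held 348 WT and 13 KO cells. Cluster 17, led by *Actc1*, *Myog* and *Dqx1*, held 4 WT and 88 KO cells, with 3 muscle markers (*Actc1*, *Myog*, *Tnnt1*) and 3 melanoblast markers (*Trpm1*, *Ptgds*, *Kit*) among its 10 leading genes, which also held *Tnnt2*, a troponin gene of embryonic muscle outside the marker list. Cluster 11, led by *Pbk*, *Ptgds* and *Cpne4*, held 185 WT and 43 KO cells and was the highest of the 3 for a list of 20 genes of the G2 and M phases, with 4164 CPM in its WT cells and 3624 CPM in its KO cells. A cluster mostly of 1 library cannot be told apart from a difference between the libraries. The muscle genes that lead cluster 17 came from few cells, as 159 of the 171 KO UMIs of 7 muscle markers lay in 4 cells, which held a median of 1 UMI of the pigment genes. Without those cells and 2 WT cells like them, left out after seeing the data, the summed log2 ratio was -0.11.

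Markers of other cell types also differed between the melanoblast-like cells of the libraries. The 9 mesenchymal markers summed to 204 CPM in WT and 684 CPM in KO, all 9 higher in KO, with *Col1a2* the most abundant there at 175 CPM. The haemoglobin gene *Hbb-bs*, an erythroid marker, was at 42.1 and 672 CPM. The 8 keratinocyte markers summed to 69.2 and 517 CPM, 6 of them higher in KO, led by *Krt10* at 173 CPM, with *Trp63* at 0 in both and *Epcam* at 0 in KO. Muscle markers summed to 26.0 and 196 CPM, led by *Actc1* at 101 CPM and with *Myh3* at 0 in KO, whereas the 10 glial markers summed to 413 and 315 CPM and the 9 macrophage markers to 98.3 and 78.9 CPM. The KO cells thus held more transcripts of mesenchymal, keratinocyte and muscle markers and of *Hbb-bs*. Apart from leaving out the few muscle-marker cells, as given above, their part in the pigment gene ratios was not tested.

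Within the class, the ratios of *Dct*, *Pmel* and the summed genes had opposite signs in cluster 11 and outside it. In cluster 11, *Dct* had a WT level of 2778 CPM (2681 to 2876) and a KO level of 3748 CPM (3542 to 3963), which is a log2 ratio of 0.43 (0.34 to 0.53). In the other melanoblast-like clusters it had a WT level of 3249 CPM (3156 to 3345) and a KO level of 2267 CPM (2142 to 2397), which is a log2 ratio of -0.52 (-0.61 to -0.43). *Dct* was thus higher in KO in the cluster with most G2 and M phase transcripts and lower in KO elsewhere. For *Pmel* the log2 ratios were 0.16 (0.01 to 0.31) and -0.25 (-0.38 to -0.13). *Tyr* and *Mcoln3* also changed sign, with overlapping intervals, *Tyr* from 0.38 (0.03 to 0.72) to -0.24 (-0.55 to 0.05) and *Mcoln3* from 0.10 (-0.28 to 0.47) to -0.16 (-0.46 to 0.14). Summed over the 10 genes they were 0.25 (0.18 to 0.32), from 5693 to 6770 CPM, and -0.39 (-0.45 to -0.33), from 6656 to 5073 CPM. This split was made after the data were seen, and outside cluster 11 it sets the WT cells of cluster 0 mostly against the KO cells of cluster 17.

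*Slc45a2* kept a ratio below 0 in both parts, -0.43 (-1.01 to 0.11) in cluster 11 and -0.77 (-1.25 to -0.31) elsewhere, and *Slc24a5* did so with -0.18 (-0.49 to 0.12) and -0.37 (-0.61 to -0.14). *Tyrp1* had 39 WT UMIs in cluster 11 and 21 elsewhere, and 0 KO UMIs in both parts. Read within each library, the summed level of cluster 11 was lower than that of cluster 0 in WT, a log2 ratio of -0.23 (-0.27 to -0.18), and higher than that of cluster 17 in KO, a log2 ratio of 0.42 (0.34 to 0.50). *Dct* followed the same course, at -0.23 (-0.29 to -0.16) in WT and 0.71 (0.59 to 0.83) in KO. *Mlana* did not, as it was lower in cluster 11 in WT, at -0.35 (-0.50 to -0.20), while in KO no difference was detectable, at -0.12 (-0.40 to 0.16).

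**Figure D2:**
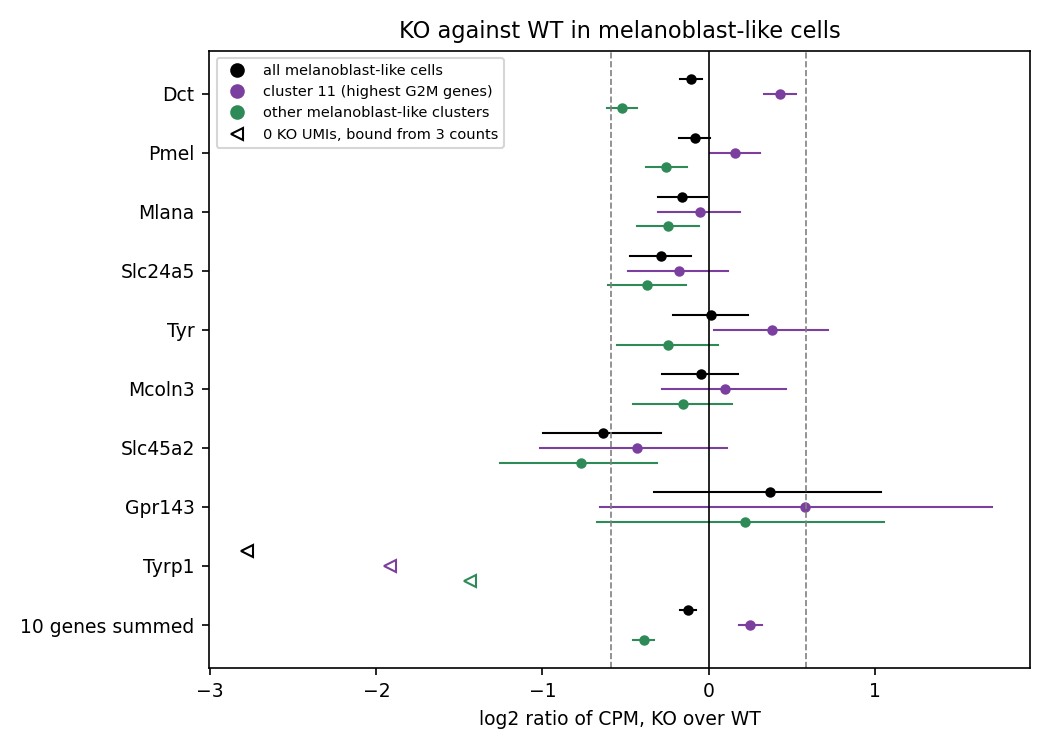
Log2 ratio of CPM, KO over WT, for each gene with a ratio and for the 10 genes summed, in all melanoblast-like cells (black), in cluster 11 with the most G2 and M phase transcripts (purple) and in the other melanoblast-like clusters (green). Points are ratios, bars exact 95% intervals of the counting error, dashed lines 1.5-fold and open triangles upper bounds from 3 counts where KO had 0 UMIs. *Dct* lies at 0.43 in cluster 11 and at -0.52 in the other clusters.

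The level of the group varied widely from cell to cell. In WT melanoblast-like cells the share of the 10 genes had a median of 4378 CPM, quartiles of 2712 and 8006 CPM, a 95th percentile of 17269 CPM and a maximum of 42404 CPM. In KO cells the median was 5267 CPM, the quartiles 2995 and 7534 CPM, the 95th percentile 12865 CPM and the maximum 18957 CPM. The typical KO cell was thus not below the typical WT cell, and the WT library reached higher at the upper end.

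The same was seen with every cell thinned to 2000 UMIs. The median number of UMIs of the 10 genes was 9 in 526 WT cells and 11 in 144 KO cells, and the highest was 87 in WT and 37 in KO. At least 10 such UMIs were found in 49.2% (44.9% to 53.6%) of the WT cells and 56.2% (47.7% to 64.5%) of the KO cells. At least 40 were found in 18 of 526 WT cells, or 3.42% (2.04% to 5.35%), and in 0 of 144 KO cells, which allows up to 2.08%. The number of the 10 genes detected per thinned cell was alike, with a mean of 3.72 in WT and 3.81 in KO and a median of 4 in both.

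**Figure D3:**
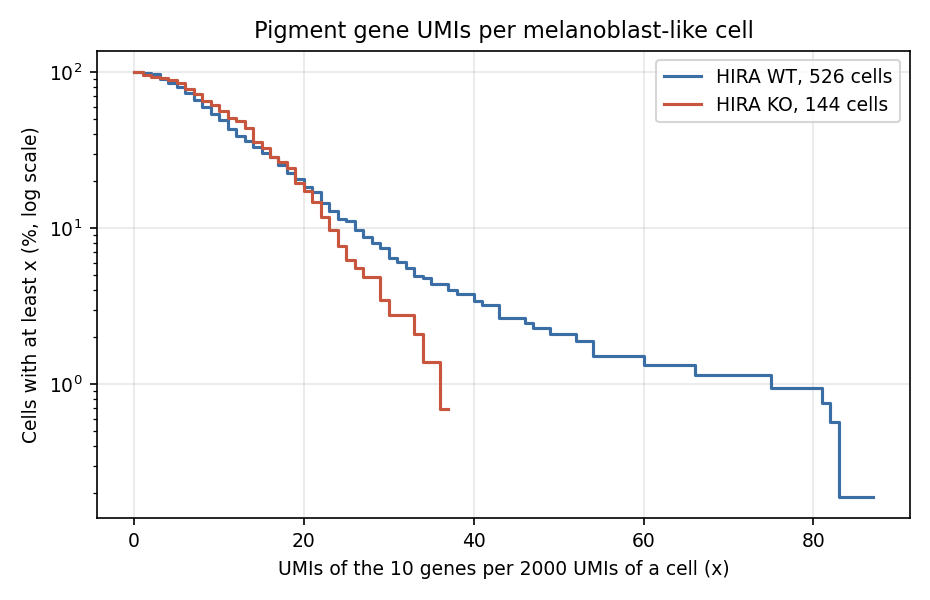
Share of melanoblast-like cells (%, log scale) with at least a given number of UMIs of the 10 genes, after each cell was thinned to 2000 UMIs, for the HIRA WT and HIRA KO library. The lines run close together at low counts, with 49.2% of WT and 56.2% of KO cells at 10 or more UMIs, and only the WT line goes past 37 UMIs.

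To see whether the genes vary together, the cells of each library were ranked by the CPM of the other members of the group and divided into 3 equal tertiles for each gene in turn, of 179 WT and 48 KO cells. In WT, *Pmel* rose from 522 CPM in the lower tertile to 2892 CPM in the upper, a log2 ratio of 2.47 (2.32 to 2.62). *Dct* rose from 1563 to 5163 CPM, a log2 ratio of 1.72 (1.63 to 1.82). *Tyr* rose less, from 178 to 326 CPM, a log2 ratio of 0.87 (0.58 to 1.17). The genes of the group thus rose together over the WT cells to unequal extents, with *Mlana* at 1.44, *Slc24a5* at 1.41, *Slc45a2* at 1.28 and *Gpr143* at 1.52 in between. *Mcoln3* moved least, from 215 to 273 CPM, a log2 ratio of 0.35 (0.06 to 0.64).

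The KO cells showed the same direction, with smaller ratios for *Pmel* and *Dct*. *Pmel* had a log2 ratio of 1.54 (1.31 to 1.78) and *Dct* of 0.89 (0.75 to 1.04), while *Mlana* had 1.48, *Slc45a2* 1.29 and *Slc24a5* 0.87. *Gpr143* had a larger ratio than in WT, 2.40 (0.58 to 4.83), on 3 UMIs in the lower tertile. For *Tyr*, at 0.37 (-0.12 to 0.88), and *Mcoln3*, at 0.40 (-0.12 to 0.92), a rise was not detectable at this depth in KO. The tertiles share the denominator of a cell's total UMIs, their median depths ranged from 4071 to 4584 UMIs in WT, and cells of 1 library are not replicates.

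Genes outside the group were read over tertiles of all 10 genes. *Cd63*, a tetraspanin that helps sort PMEL, had log2 ratios of 1.24 (1.12 to 1.35) in WT and 1.42 (1.19 to 1.65) in KO. *Gpnmb*, a melanosomal glycoprotein related to PMEL, had 1.53 (1.12 to 1.96) and 1.30 (0.60 to 2.04). *Bace2*, a protease that cleaves PMEL, had 1.46 (1.07 to 1.86) and 1.36 (0.62 to 2.15). These genes were chosen after their values were seen, and not all pigment genes outside the group rose. *Bloc1s1* was at 0.19 (-0.53 to 0.92) in WT and 0.22 (-0.52 to 0.96) in KO. The lineage genes *Kit*, at -0.32 (-0.59 to -0.05) in WT and -0.06 (-0.50 to 0.38) in KO, and *Pax3*, at -0.07 (-0.32 to 0.18) and -0.40 (-0.90 to 0.10), did not rise with the pigment genes. *Trpm1*, a cation channel gene and melanoblast marker, rose by 2.04 (1.54 to 2.57) in WT and 0.99 (0.39 to 1.60) in KO, and *Sox10*, a transcription factor gene of the neural crest, was at 0.29 (0.02 to 0.56) and 0.03 (-0.43 to 0.50). *Mitf*, the transcription factor gene of the lineage, rose by 0.72 (0.37 to 1.07) in WT, and in KO was at 0.21 (-0.39 to 0.81). The G2 and M phase genes had 2123, 2188 and 1682 CPM from the lower to the upper tertile in WT, where the lower and middle values were close. In KO they had 1010.3, 2049 and 1626 CPM, highest in the middle tertile.

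**Figure D4:**
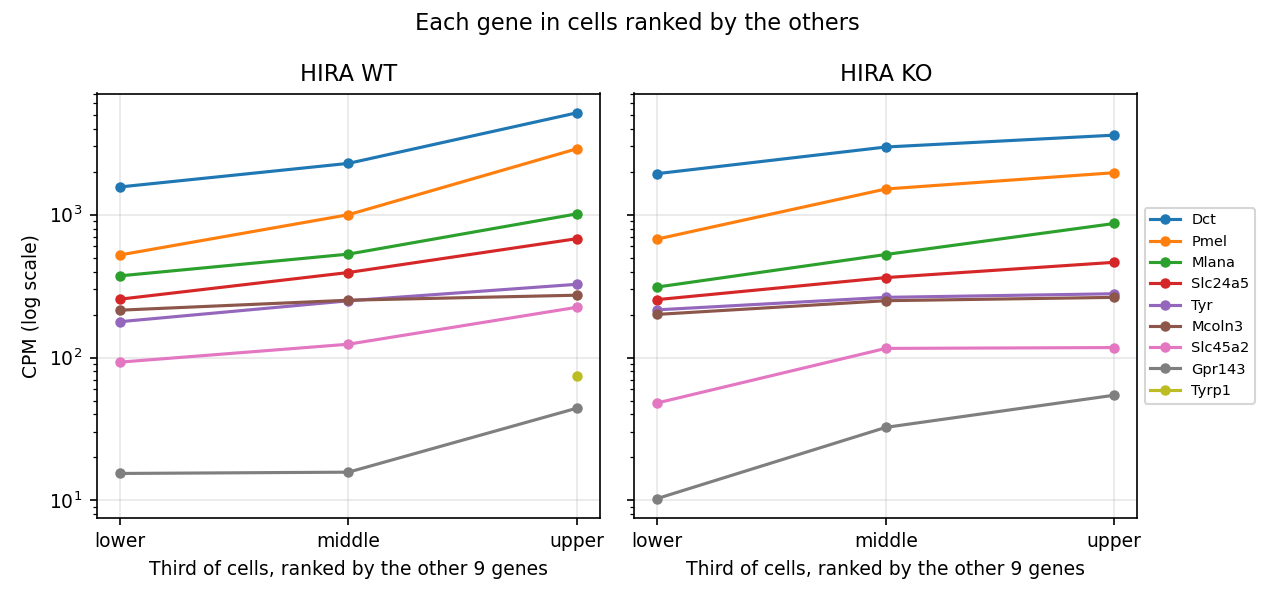
CPM (log scale) of each gene in the lower, middle and upper tertile of melanoblast-like cells ranked by the other members of the group, for HIRA WT (179 cells per tertile) and HIRA KO (48 cells per tertile). *Pmel* goes from 522 to 2892 CPM in WT, while *Mcoln3* goes from 215 to 273 CPM.

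*Tyrp1* was confined to the upper end of this range in the WT library. All 60 of its WT UMIs lay in the upper tertile. The 53 WT cells highest for the other 9 genes, at 12544 CPM or more, held 58 of them, or 244 CPM (185 to 315), and 12 of these cells (22.6%, 12.3% to 36.2%) had a UMI. The other 484 WT cells held 2 UMIs. *Tyrp1* thus appeared where the other pigment genes were highest, but it rests on few cells, since 3 cells with 19, 14 and 8 UMIs held 41 of the 60.

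In KO, 9 cells reached the same level of the other 9 genes and held 0 UMIs of *Tyrp1*, which allows up to 62.9 CPM and up to 33.3% of these cells. The WT share of 22.6% lay within that limit, whereas the WT level of 244 CPM, most of it from 3 cells, lay above it. With 9 KO cells at that level, whether *Tyrp1* was absent from such KO cells or only missed was not tested. Both WT UMIs of *Oca2* also lay in the 53 highest WT cells. *Rab38* and *Mlph*, genes of melanosome biogenesis and transport singled out after their values were seen, were at 58.8 and 50.4 CPM in those 53 cells and at 5.21 and 3.90 CPM in the rest. *Rab38* and *Mlph* are not particular to pigment cells here, as WT glial-like cells had 77.0 and 13.4 CPM of them.

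A list of 30 other pigment genes was read beside the group, of which 29 were in the counts and 19 had at least 30 UMIs in melanoblast-like cells. Of these 19, 1 was lower and 4 were higher in KO by 1.5-fold or more, with a median log2 ratio of 0.19, beside 9.11% lower and 8.97% higher among all 6982 genes with at least 30 UMIs and a median of -0.01. The lower gene was *Mc1r*, the melanocortin receptor that favours eumelanin, which fell from 50.3 to 30.9 CPM, a log2 ratio of -0.70 (-1.36 to -0.10). The 4 higher genes are among the 12 genes read for melanosome biogenesis, whose median log2 ratio was 0.32, and whether that is more than chance gives was not tested.

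They were *Bloc1s1*, at 1.12 (0.73 to 1.51), *Hps4*, at 0.80 (0.24 to 1.34), *Ap3d1*, at 0.96 (0.18 to 1.71), and *Bloc1s6*, at 0.92 (-0.12 to 1.92), whose interval includes 0. These encode parts of the complexes that sort cargo to lysosome-related organelles and are not particular to pigment cells. *Bloc1s1* was higher in KO in other classes too, rising from 83.1 to 122 CPM in glial-like cells and from 89.6 to 131 CPM in mesenchymal-like cells. None of the 3 transport genes, *Rab27a*, *Mlph* and *Myo5a*, passed 1.5-fold, nor did the 3 genes of cargo and PMEL processing, of which *Cd63* had a log2 ratio of -0.32 (-0.41 to -0.23), *Gpnmb* 0.15 (-0.15 to 0.44) and *Bace2* -0.07 (-0.37 to 0.22).

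The genes outside the group whose levels were most like its sum were found by Pearson correlation of log2(CPM + 10) over 26 profiles, each a cluster of 1 library with at least 20 cells, among 3469 genes. *Ptgds*, a prostaglandin D synthase, came first at 0.962, followed by *Gpnmb* at 0.946, *Sgip1* at 0.940, *Bace2* at 0.935 and *Tspan10* at 0.932. *Cpne4*, *Syt4*, *Gucy1b3*, *Syngr1* and *Cyb5a* followed at 0.925 to 0.921. Of these 10, *Ptgds*, *Tspan10*, *Syt4* and *Syngr1* were markers used to name the melanoblast-like class. The profiles share 2 libraries, and the correlation mainly reflects that these genes were high in melanoblast-like clusters and low in others. Among the members themselves, *Mlana*, *Pmel* and *Dct* had the closest profiles to the sum that contains them, at 0.984, 0.981 and 0.976, and *Tyrp1* and *Oca2* were at 0.445 and 0.105.

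*Dct*, *Tyr* and *Slc24a5* each rose with the other members over WT cells, and the promoters of the group were searched for the E-box CATGTG on either strand, the core of the motif bound by MITF, and for the longer form TCATGTGCT that contains it. RefSeq promoter sequences on GRCm38.p6, from 250 bases before to 50 bases after the start, were at hand for *Dct*, *Tyr*, *Tyrp1*, *Slc24a5*, *Oca2* and *Mcoln3*, 6 of the 10 genes, and missing for *Pmel*, *Mlana*, *Slc45a2* and *Gpr143*. The E-box was found on either strand in 5 of these 6, all but *Mcoln3*, whose window (chr3:146121541-146121840) lies inside the gene of GENCODE M21, which begins at 146117450, and in 12.3% of 32851 promoters. The longer form was found in *Dct*, *Tyr* and *Tyrp1*, and in 110 of all promoters, or 0.335%. The 3 genes of the tyrosinase family share this motif although their levels ranged from 3039 to 23.6 CPM in the same WT cells. A match is a description of the letters and not evidence of binding. The matches are shown 5′ to 3′ on the strand of the gene, with the motif in capitals. The place given relative to the gene is that of the motif, as the stretch shown for *Slc24a5* ends inside the gene.
*Tyr* (chr7:87493516-87493544, minus strand, upstream of the gene in GENCODE M21, motif beginning 22 bases before the RefSeq start): aaaaagttagTCATGTGCTttgcagaaga
*Dct* (chr14:118052379-118052407, minus strand, upstream of the gene, motif beginning 151 bases before the start): gcacttagggTCATGTGCTaacaaagagg
*Dct* (chr14:118052463-118052488, minus strand, upstream of the gene, E-box in the other orientation, beginning 232 bases before the start): ttggctgggaCACATGagcccaataa
*Tyrp1* (chr4:80834156-80834184, plus strand, in an exon of the gene in GENCODE M21, motif beginning 47 bases before the RefSeq start): ggggagggagTCATGTGCTgcctagtagt
*Slc24a5* (chr2:125068104-125068126, plus strand, upstream of the gene, E-box in the other orientation): ggagactgctCACATGattcagc
*Oca2* (chr7:56239563-56239588, plus strand, upstream of the gene, E-box in the other orientation): gagcttgctaCACATGgctggaattt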

How the data were processed

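The authors used Cell Ranger 2.2.0 on mm10 with added sequences of tdTomato and Cre, and the deposited values are raw UMI counts per gene and barcode of cells. Their summary tallies reads antisense to genes apart. Barcodes with under 100 genes, over 40000 UMIs or over 10% mitochondrial UMIs were left out (6 WT, 18 KO). Cells were clustered in scanpy 1.11.5 (Python 3.11.15) on 1987 variable genes with 30 principal components, 15 neighbours and Leiden resolution 1, seed 0. The members and the other pigment genes were held out. Clusters took their class from 13 marker lists, with at least 3 raised markers, and 10 classes were found. Doublets were called with Scrublet and kept. Intervals are Poisson for levels, Clopper-Pearson for shares and conditional binomial for ratios, and a count of 0 was given the limit of 3 counts. The named genes are the 10 members, other pigment genes past 1.5-fold, the 10 genes most like the summed members, the 3 leading genes of each melanoblast-like cluster, the label checks and markers that move with a result. The tertile genes and the genes named for the highest WT cells were chosen after their values were seen. Members and lists were chosen with earlier results of these data known. Alternatives changed the cell filter, resolution, seed, clustering, doublets, depth, weighting, scaling, background, fold and UMI minimum. Other tools were igraph 0.11.9, matplotlib 3.10.9, pandas 2.3.3, scipy 1.17.1, numpy 2.4.6 and anndata 0.12.19. The calculations were tested on simulated data. Positions are from GENCODE M21.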

Additional observations from a re-analysis of the deposited data

Results flagged for a closer look

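The KO to WT ratio of some genes had opposite signs in melanoblast-like cluster 11, which held the most G2 and M phase transcripts, and in the other melanoblast-like clusters. The log2 ratio in cluster 11 minus that in the others was 0.95 for *Dct*, 0.41 for *Pmel* and 0.64 for the 10 genes summed. *Tyr* and *Mcoln3* also changed sign, but with overlapping intervals. These differences were not tested, as there was 1 library per genotype. The cells outside cluster 11 were mostly those of cluster 0 in WT and of cluster 17 in KO, and the part of this makeup in the difference was not tested.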

How the results depend on the processing

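No paired analysis was possible because there was 1 library per genotype. *Oca2* gave no ratio under any setting. Over the 12 alternatives set at the start, the summed log2 ratio stayed below 0, from -0.19 to -0.09. Over the 16 alternatives in all it was -0.19 with at least 500 genes per cell and, in settings chosen after seeing the data, 0.25 in cluster 11 alone, -0.39 without it and 0.27 as the median over cells. In the 500-gene setting, a cluster of 3 WT and 97 KO cells in the class was led by haemoglobin genes and had no melanoblast marker among its 10 leading genes. The cause was not tested.

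The count of genes lower by 1.5-fold, 1 as reported, was 0 with WT clusters weighted to the makeup of KO, 0 at a fold of 2 and 2 at 30 UMIs. The count of higher genes was 2 under that weighting, *Mlana* at 0.65 and *Mcoln3* at 0.71, where 56.0% of the weight falls on 4 WT cells. *Tyr* moved to -0.44 and *Pmel* to -0.28 there, and *Dct* to -0.17 with at least 500 genes per cell.

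*Slc45a2* was below 0 in all 15 alternatives, from -0.77 to -0.43, and past 1.5-fold in 13. *Slc24a5* was below 0 and *Gpr143* above 0 in all 15. The upper bound for *Tyrp1* stayed past 1.5-fold in all 15 and was weakest with cells thinned to 2000 UMIs, at a log2 ratio of -1.01 on 22 WT UMIs, and -2.36 as the mean over cells, -2.02 weighted, -1.92 in cluster 11 and -1.44 without it.

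Thinned, the summed level was 6343 CPM in WT and 5976 CPM in KO melanoblast-like cells, 117 and 91.5 CPM in glial-like, 227 and 129 CPM in mesenchymal-like and 70.4 CPM in WT macrophage-like cells. Without the cells called as doublets it was 124 CPM in WT glial-like cells and 257 and 134 CPM in WT and KO mesenchymal-like cells. Every other level stayed within its counting interval under the 3 alternatives. The melanoblast-like class held 534 to 537 WT and 139 to 148 KO cells across the clusterings. With each library clustered alone, a KO cluster of 104 cells in the class was led by the mast cell genes *Cpa3*, *Cma1*, *Hdc* and *Tpsb2*. *Ptgds* and *Kit* were also among its 10 leading genes. The KO class then held 145 cells, 139 of them melanoblast-like in the main clustering, and no KO cluster was named mast cell-like. Whether the 4 KO mast cell-like cells of the main clustering lay in it was not tested.

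Depth limits what *Gpr143*, *Tyrp1* and *Oca2* can show, and no interval here covers the spread between embryos.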
